A study of Homo sapiens with 12 samples.

Results

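Cholesterol and lipid synthesis genes were followed in 2 lymphoma cell lines carrying inducible hairpins against subunits of the transcription factor NF-kB. The set names 35 genes, listed by symbol, and each gene was read from its probe set annotated to that symbol alone, or from the brightest of them where there were several. By this rule 34 of the 35 genes had values, out of 18417 genes on the array, and FDFT1 is not analysed here. By role they comprise 7 genes of the mevalonate steps, 9 of the sterol steps, 5 regulators, 6 genes of sterol transport and storage and 7 of fatty acid synthesis and desaturation. CYP51A1 was the 1 gene with 2 probe sets.

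Cholesterol is built from acetyl-CoA in the cytosol and endoplasmic reticulum. The mevalonate steps yield isoprenoids, and the sterol steps close and trim the ring system to cholesterol. When sterols in the endoplasmic reticulum run low, the escort protein SCAP carries the SREBP transcription factors to the Golgi, where they are cut and freed to activate the synthesis genes, and when sterols are plentiful the INSIG proteins hold SCAP back. SREBF2 encodes the SREBP best known for cholesterol genes and SREBF1 the forms best known for fatty acid genes, and growing lymphoid cells draw on both programmes.

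RNA was measured on 12 single-colour arrays, with values given as log2 levels. U-H01 derives from Hodgkin lymphoma, and HBL-1 is a model of the activated B-cell-like (ABC) class of diffuse large B-cell lymphoma. Every array came from cells transduced with hairpins, against RelB and cRel per the labels' protocols, each with 2 sequences, and doxycycline was given to one share of the transduced cells to switch the hairpin on. The groups were 4 U-H01 arrays labelled induced and 4 uninduced U-H01 arrays, from populations called B1 and B2 at 2 time points each, and 2 induced and 2 uninduced HBL-1 arrays, from a population called C at 2 time points. Replicates 1 and 2 of U-H01 are B1 at time points 1 and 2, and replicates 3 and 4 are B2 at time points 1 and 2. The treatment label of induced B2 arrays adds "Seq2", and those of induced HBL-1 arrays name day 1 and day 2, while which subunit each population's hairpin targets is not stated in the labels. The series' design text also names RelA and wild-type cells, which are not analysed here. U-H01 was grown in 20% serum and HBL-1 in 10% serum, so line and serum cannot be told apart.

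Several facts of the arrays bear on all that follows. Within a group, array correlations were 0.991 to 0.996, but U-H01 arrays labelled induced correlated with uninduced U-H01 arrays at only 0.893 to 0.909. With HBL-1 arrays, those labelled induced correlated at 0.903 to 0.915 and uninduced U-H01 arrays at 0.886 to 0.898. When cell identity was checked, 4 of the 8 U-H01 arrays disagreed with the remainder. The B-cell receptor chain gene CD79A averaged 11.0 in U-H01 arrays labelled induced and 5.73 in uninduced ones, and the Hodgkin marker TNFRSF8, the gene of CD30, averaged 11.6 in U-H01 arrays labelled induced and 6.89 in uninduced ones, against 6.63 in both HBL-1 groups. The B-cell gene MS4A1 averaged 4.52 in U-H01 arrays labelled induced and 4.49 in uninduced U-H01 arrays, against 11.0 in both HBL-1 groups. Of 7 B-cell markers, CD79A, PAX5, CD22 and CR2 were higher in U-H01 arrays labelled induced than in uninduced ones. BLK was lower (5.41 against 6.20), while MS4A1 and CD79B (6.27 against 6.32) did not pass the test. The summed log2 level of 7 B-cell markers was 55.5 to 58.0 in U-H01 arrays labelled induced, 40.1 to 41.9 in uninduced U-H01 arrays, 64.4 to 64.8 in induced HBL-1 arrays and 65.2 to 65.3 in uninduced HBL-1 arrays. For 8 Hodgkin markers it was 65.4 to 67.7 in U-H01 arrays labelled induced, 61.9 to 63.1 in uninduced U-H01 arrays and 59.3 to 59.8 in HBL-1 arrays. Without TNFRSF8 the other 7 summed to 54.0 to 56.0 in U-H01 arrays labelled induced and 55.1 to 56.0 in uninduced ones. Of the 8, TNFRSF8, TRAF1 and IRF4 were higher in arrays labelled induced, while CCL22 (5.82 against 7.57 in uninduced ones), FSCN1 (6.91 against 8.75) and FUT4 (6.38 against 6.85) were lower. Of 8 T and NK cell markers, 7 lay below the array median in every group, and of 7 myeloid markers 6 did in U-H01 arrays labelled induced and 7 in each other group. Of 8 markers of stroma, endothelium and epithelium, 5 did in uninduced U-H01 arrays and 4 in each other group. In that last list PECAM1 averaged 5.04 in U-H01 arrays labelled induced and 10.6 in uninduced ones (adjusted p = 3.52e-13), and CDH1 averaged 7.95 in arrays labelled induced and 5.63 in uninduced ones (adjusted p = 2.57e-09). Induction and cell identity therefore cannot be told apart in U-H01, and the arrays are called by their label. RELB did not pass the test in either line, at 7.22, 7.26, 7.39 and 7.14 in U-H01 arrays labelled induced and 7.23, 7.38, 7.54 and 7.45 in uninduced ones (log2 difference -0.15, adjusted p = 0.209), and at 7.57 and 7.40 in induced HBL-1 arrays and 7.67 and 7.67 in uninduced ones (adjusted p = 0.749). REL, the gene of cRel, was at 9.13 and 9.37 in induced HBL-1 arrays against 9.70 and 9.78 in uninduced ones, with no overlap but an adjusted p of 0.123. In U-H01 arrays labelled induced REL averaged 10.2 against 10.0 in uninduced ones (adjusted p = 0.0721), and RELA, the gene of a further subunit, was higher there by 0.24 (adjusted p = 0.0229). Within the arrays labelled induced, replicate 3 stood apart for the lipid genes, as described further on. Separate cultures are not stated for the replicates, and p-values thus rest on array-to-array spread that may be technical. In bulk RNA fewer cells of a type and less RNA per cell cannot be told apart.

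Promoter windows of 6 genes are printed because the differences described next turn on these genes. HMGCS1 and MSMO1 were the members whose array-to-array deviations were most like those of the other synthesis genes. CYP51A1 had the largest difference of the set, and FADS1 and FADS2 changed together. SREBF2 was the 1 member with a window that matched the form TCACNCCAC of the sterol regulatory element. Other forms of that element were not searched for. Each window runs 5′ to 3′ on the gene's strand, from 250 bases before to 50 bases after a RefSeq start on GRCh38.p14. Capitals mark matches, on either strand, to the sterol regulatory element TCACNCCAC or to the NF-Y box CCAAT, whose reverse complement reads ATTGG. The windows are SREBF2 at chr22:41832855-41833154 on the plus strand, HMGCS1 at chr5:43313363-43313662 on the minus strand, MSMO1 at chr4:165327419-165327718 on the plus strand, CYP51A1 at chr7:92134428-92134727 on the minus strand, FADS1 at chr11:61816954-61817253 on the minus strand and FADS2 at chr11:61816154-61816453 on the plus strand.
SREBF2: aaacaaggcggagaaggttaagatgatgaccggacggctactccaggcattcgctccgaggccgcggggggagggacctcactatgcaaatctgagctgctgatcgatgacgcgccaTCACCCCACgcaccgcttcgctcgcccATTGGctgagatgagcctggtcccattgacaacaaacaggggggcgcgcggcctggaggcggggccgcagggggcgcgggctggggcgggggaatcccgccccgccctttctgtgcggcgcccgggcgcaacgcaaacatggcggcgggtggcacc
HMGCS1: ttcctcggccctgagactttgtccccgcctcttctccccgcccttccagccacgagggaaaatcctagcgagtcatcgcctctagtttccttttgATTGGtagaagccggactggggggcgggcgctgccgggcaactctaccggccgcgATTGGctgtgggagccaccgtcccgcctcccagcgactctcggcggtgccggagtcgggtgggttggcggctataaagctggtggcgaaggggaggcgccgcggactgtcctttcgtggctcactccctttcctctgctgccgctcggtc
MSMO1: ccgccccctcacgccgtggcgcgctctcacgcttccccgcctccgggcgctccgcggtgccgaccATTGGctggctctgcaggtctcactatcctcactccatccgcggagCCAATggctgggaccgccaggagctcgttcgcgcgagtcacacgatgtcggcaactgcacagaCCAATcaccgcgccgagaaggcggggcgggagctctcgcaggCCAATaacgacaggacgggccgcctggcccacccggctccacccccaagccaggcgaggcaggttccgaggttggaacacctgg
CYP51A1: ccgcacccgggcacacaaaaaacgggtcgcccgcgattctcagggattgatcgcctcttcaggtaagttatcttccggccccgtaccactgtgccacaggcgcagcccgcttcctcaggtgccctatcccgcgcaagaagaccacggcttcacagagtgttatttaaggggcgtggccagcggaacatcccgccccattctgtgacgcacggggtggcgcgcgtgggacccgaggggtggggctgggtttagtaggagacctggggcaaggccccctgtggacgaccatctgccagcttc
FADS1: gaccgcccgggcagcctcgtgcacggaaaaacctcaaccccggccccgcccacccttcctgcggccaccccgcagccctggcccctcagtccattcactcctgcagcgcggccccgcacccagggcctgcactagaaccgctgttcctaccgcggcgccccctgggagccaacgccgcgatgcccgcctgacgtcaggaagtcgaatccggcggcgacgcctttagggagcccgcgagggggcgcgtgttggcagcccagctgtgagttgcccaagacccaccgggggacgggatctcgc
FADS2: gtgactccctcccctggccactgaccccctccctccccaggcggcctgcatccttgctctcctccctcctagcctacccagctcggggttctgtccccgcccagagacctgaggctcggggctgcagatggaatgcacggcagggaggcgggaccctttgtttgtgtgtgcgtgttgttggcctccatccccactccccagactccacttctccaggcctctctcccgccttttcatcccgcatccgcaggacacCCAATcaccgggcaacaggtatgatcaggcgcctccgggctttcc

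The MSMO1 window held 4 NF-Y boxes, that of HMGCS1 held 2, those of SREBF2 and FADS2 held 1 each, and those of CYP51A1 and FADS1 held 0. HMGCS1 and FADS2 each have another window in the table, not printed, with 0 NF-Y boxes. From the starts shown, FADS1 and FADS2 are read toward each other on opposite strands, with 500 bases between the windows. Over all members, 30 of 34 had a window in the RefSeq table, 41 windows in all. CCAAT was found in 25 of the 41 windows, or 61.0%, against 34.6% of the 35116 windows of all genes. Counted by gene, it was found in 70% of the 30 members with a window, against 39.7% of all genes. Of the 14 mevalonate and sterol genes with a window, 12 had it. TCACNCCAC was found in 1 member window, 2.44% against 1.13% of all windows. The E-box CACGTG was found in 6, or 14.6% against 7.26%, and the NF-kB form GGG, any 2 bases, TTTCC in 1, that of TM7SF2, or 2.44% against 1.91%. Motifs were searched on both strands, each motif was counted without regard to overlap with the others, and a match is a description of the sequence only.

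In U-H01, arrays labelled induced and uninduced arrays differed in most of the lipid genes, and the roles split. Of the 34 members, 28 passed the test (limma, adjusted p under 0.05), of which 20 were higher in arrays labelled induced and 8 were lower, against 45.8% of all genes (22.3% higher and 23.5% lower). Among genes brighter than the median gene, which included 32 members, 65.8% passed. The median log2 difference was 0.37 over the members and 0.03 over all genes, and the median size was 0.59 against 0.21. Higher were 5 of 7 mevalonate genes, 4 of 5 regulators, 4 of 6 transport and storage genes and 6 of 7 fatty acid genes, while 5 of 9 sterol genes were lower and 1 was higher. Without replicate 3 of the arrays labelled induced, 30 members passed, and 7952 of all 18417 genes.

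**Figure D1:**
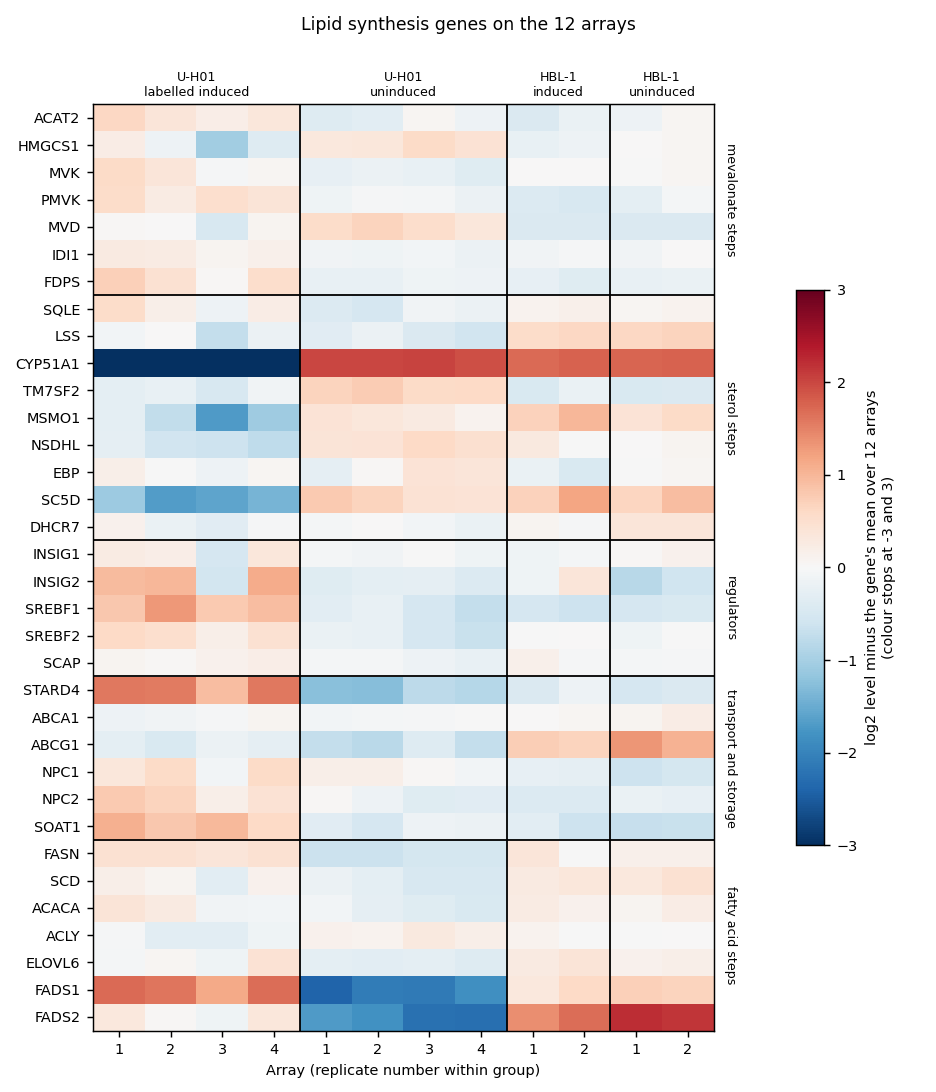
Colour shows the log2 level of each of the 34 genes (down the page, by role) minus that gene's mean over the 12 arrays (across, by group and replicate), stopping at -3 and 3. CYP51A1 was low on all 4 U-H01 arrays labelled induced and FADS1 and FADS2 were low on all 4 uninduced U-H01 arrays, while replicate 3 of the arrays labelled induced was the lowest of its group in 25 of 34 genes.

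The sterol genes held the largest difference of the set. CYP51A1, the lanosterol demethylase, was at 4.29, 5.31, 5.17 and 4.65 in U-H01 arrays labelled induced and at 10.60, 10.59, 10.62 and 10.53 in uninduced ones. All 4 arrays labelled induced lay far below every other array of the study, since HBL-1 ran from 10.28 to 10.37. The log2 difference was -5.73 ± 0.18 (SE), a fold of 53.1, with adjusted p = 5.71e-11, and the other CYP51A1 probe set gave means of 5.84 in arrays labelled induced and 9.59 in uninduced ones. Array lower quartiles were 4.18 to 4.28, so the low CYP51A1 level lay near the dim end of the array, where log2 values understate a fold. SC5D, the lathosterol oxidase, was at 6.35, 5.76, 5.85 and 6.04 in arrays labelled induced and at 8.23, 8.11, 7.87 and 7.85 in uninduced ones. These groups did not overlap either, and SC5D fell by 2.02 ± 0.11 (adjusted p = 1.58e-08).

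MSMO1, the methylsterol monooxygenase that acts downstream of CYP51A1 and whose window held the 4 NF-Y boxes, was at 8.22, 7.77, 6.81 and 7.44 in arrays labelled induced and at 8.92, 8.83, 8.76 and 8.60 in uninduced ones. Every array labelled induced was lower, with replicate 3 lowest, and the difference was -1.22 ± 0.17 (adjusted p = 5.27e-05). NSDHL, the sterol dehydrogenase of the same demethylation series, was at 8.07, 7.77, 7.72 and 7.60 in arrays labelled induced and at 8.74, 8.75, 8.95 and 8.83 in uninduced ones. Its groups were apart, with a difference of -1.03 ± 0.11 (adjusted p = 3.97e-06). TM7SF2, a sterol reductase, was at 7.37, 7.44, 7.18 and 7.57 in arrays labelled induced and at 8.33, 8.43, 8.23 and 8.27 in uninduced ones, again without overlap (-0.92 ± 0.09, adjusted p = 1.5e-06). SQLE, squalene epoxidase and a controlled early step, was the sterol gene that went the other way, at 11.18, 10.80, 10.48 and 10.86 in arrays labelled induced and at 10.22, 10.13, 10.53 and 10.46 in uninduced ones. Replicate 3 of the arrays labelled induced fell inside the range of the uninduced ones, the difference was 0.50 ± 0.14 (adjusted p = 0.0107), and the call was lost without uninduced replicate 2 (adjusted p = 0.0516). LSS, lanosterol synthase, EBP, a sterol isomerase, and DHCR7, the reductase of a last step, did not pass, with differences of 0.14, -0.11 and -0.03.

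**Figure D2:**
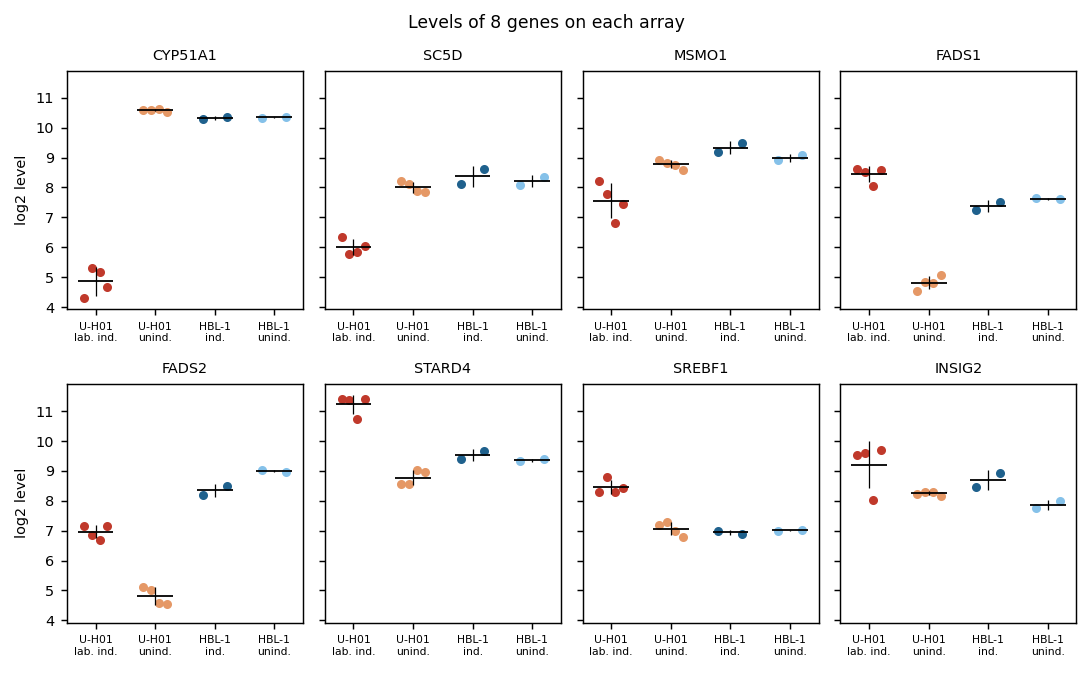
Points are log2 levels on single arrays in the 4 groups for 8 genes, with the group mean as a horizontal line and its SD as a vertical one. CYP51A1, SC5D and MSMO1 lay lower, and FADS1, FADS2, STARD4 and SREBF1 higher, on the 4 U-H01 arrays labelled induced than on the 4 uninduced ones.

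Mevalonate genes were mostly higher in the arrays labelled induced, with HMGCS1 and MVD as exceptions. HMGCS1, the synthase that makes HMG-CoA, was at 10.33, 9.95, 9.07 and 9.73 in arrays labelled induced and at 10.41, 10.44, 10.67 and 10.54 in uninduced ones. All 4 arrays labelled induced were lower, replicate 3 by far the most, and the difference of -0.75 ± 0.19 (adjusted p = 0.00555) shrank to -0.48 without that array (adjusted p = 0.00695). MVD, the decarboxylase that makes isopentenyl diphosphate, was at 8.16, 8.13, 7.64 and 8.20 in arrays labelled induced and at 8.67, 8.78, 8.64 and 8.44 in uninduced ones, with no overlap (-0.60 ± 0.11, adjusted p = 0.000482). FDPS, the farnesyl diphosphate synthase, was at 10.02, 9.76, 9.34 and 9.82 in arrays labelled induced and at 9.08, 9.07, 9.18 and 9.16 in uninduced ones. Its arrays were apart in the other direction, by 0.61 ± 0.12 (adjusted p = 0.00106). The other 4 were higher as well, namely the thiolase ACAT2 by 0.58, the phosphomevalonate kinase PMVK by 0.52, the mevalonate kinase MVK by 0.50 and the isomerase IDI1 by 0.32, with adjusted p from 0.000305 to 0.00368. Neighbouring steps of the route thus differed in opposite directions in these arrays, with HMGCS1 lower beside a higher ACAT2 and MVD lower beside a higher PMVK.

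The regulators were higher or did not pass. SREBF1 was at 8.30, 8.79, 8.29 and 8.43 in arrays labelled induced and at 7.18, 7.29, 7.0 and 6.78 in uninduced ones. Every array labelled induced was above every uninduced one, and above the HBL-1 arrays at 6.89 to 7.03, with a difference of 1.39 ± 0.11 (adjusted p = 2.33e-07). SREBF2 was at 9.64, 9.54, 9.23 and 9.51 in arrays labelled induced and at 8.86, 8.83, 8.54 and 8.38 in uninduced ones, also without overlap (0.83 ± 0.09, adjusted p = 6.19e-06). INSIG2, one of the proteins that hold SCAP in the endoplasmic reticulum, was at 9.52, 9.59, 8.04 and 9.70 in arrays labelled induced and at 8.23, 8.30, 8.31 and 8.18 in uninduced ones. Replicate 3 lay below all uninduced arrays and the other 3 well above them, so the difference of 0.96 ± 0.24 (adjusted p = 0.0055) became 1.35 without that array. SCAP was higher by 0.24 (adjusted p = 0.033), a call lost in 5 of the alternatives, where adjusted p ran from 0.0568 to 0.129: under quantile normalization and without replicate 3 or 4 of either U-H01 group. INSIG1 averaged 9.93 ± 0.39 in arrays labelled induced and 9.79 ± 0.05 in uninduced ones (SD, n = 4 each) and did not pass.

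Genes of sterol transport and storage were higher where they passed. STARD4, which carries sterols between membranes, was at 11.40, 11.37, 10.75 and 11.39 in arrays labelled induced and at 8.56, 8.55, 9.04 and 8.97 in uninduced ones. Even replicate 3, its lowest, was above all 8 other arrays of the study, and the difference was 2.45 ± 0.16 (adjusted p = 5e-08), a fold of 5.47. SOAT1, which esterifies cholesterol for storage, was at 9.70, 9.45, 9.61 and 9.24 in arrays labelled induced and at 8.31, 8.15, 8.50 and 8.46 in uninduced ones, with no overlap (1.15 ± 0.10, adjusted p = 1.23e-06). NPC2, the soluble lysosomal partner in cholesterol export, was at 10.11, 9.99, 9.51 and 9.76 in arrays labelled induced and at 9.36, 9.18, 8.96 and 8.99 in uninduced ones. These were apart too (0.72 ± 0.09, adjusted p = 1.85e-05), and the efflux transporter ABCG1 was higher by 0.36 (adjusted p = 0.00226). NPC1, the membrane partner of NPC2, had a difference of 0.27 and missed the threshold (adjusted p = 0.0652). The efflux transporter ABCA1 was dim in all groups, with means of 3.99 ± 0.10 in arrays labelled induced and 3.99 ± 0.03 in uninduced ones (SD, n = 4 each).

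Fatty acid genes were higher with 1 exception. FADS1, a desaturase of polyunsaturated fatty acids, was at 8.63, 8.52, 8.06 and 8.60 in arrays labelled induced and at 4.53, 4.83, 4.81 and 5.07 in uninduced ones. The HBL-1 arrays, at 7.24 to 7.64, lay between these groups, and the U-H01 difference was 3.64 ± 0.13 (adjusted p = 1.49e-10), a fold of 12.5 from a level near the dim end. FADS2, its partner desaturase, was at 7.14, 6.86, 6.70 and 7.15 in arrays labelled induced and at 5.11, 5.01, 4.59 and 4.55 in uninduced ones. Both U-H01 groups lay below HBL-1, at 8.20 to 9.03, and the U-H01 difference was 2.15 ± 0.13 (adjusted p = 2.28e-08). FASN, the fatty acid synthase, was at 10.07, 10.06, 9.97 and 10.06 in arrays labelled induced and at 8.96, 8.97, 9.08 and 9.08 in uninduced ones. The spread within each group was small against the difference of 1.02 ± 0.09 (adjusted p = 6.27e-07). ACACA, the carboxylase that makes malonyl-CoA, was higher by 0.41, the elongase ELOVL6 by 0.39 and the stearoyl desaturase SCD by 0.38, with adjusted p from 0.00124 to 0.0084. ACLY, which makes cytosolic acetyl-CoA from citrate, was at 10.84, 10.55, 10.55 and 10.75 in arrays labelled induced and at 10.99, 10.98, 11.16 and 11.05 in uninduced ones. It was the fatty acid gene that fell, by 0.37 ± 0.09 (adjusted p = 0.00454), without overlap.

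**Figure D3:**
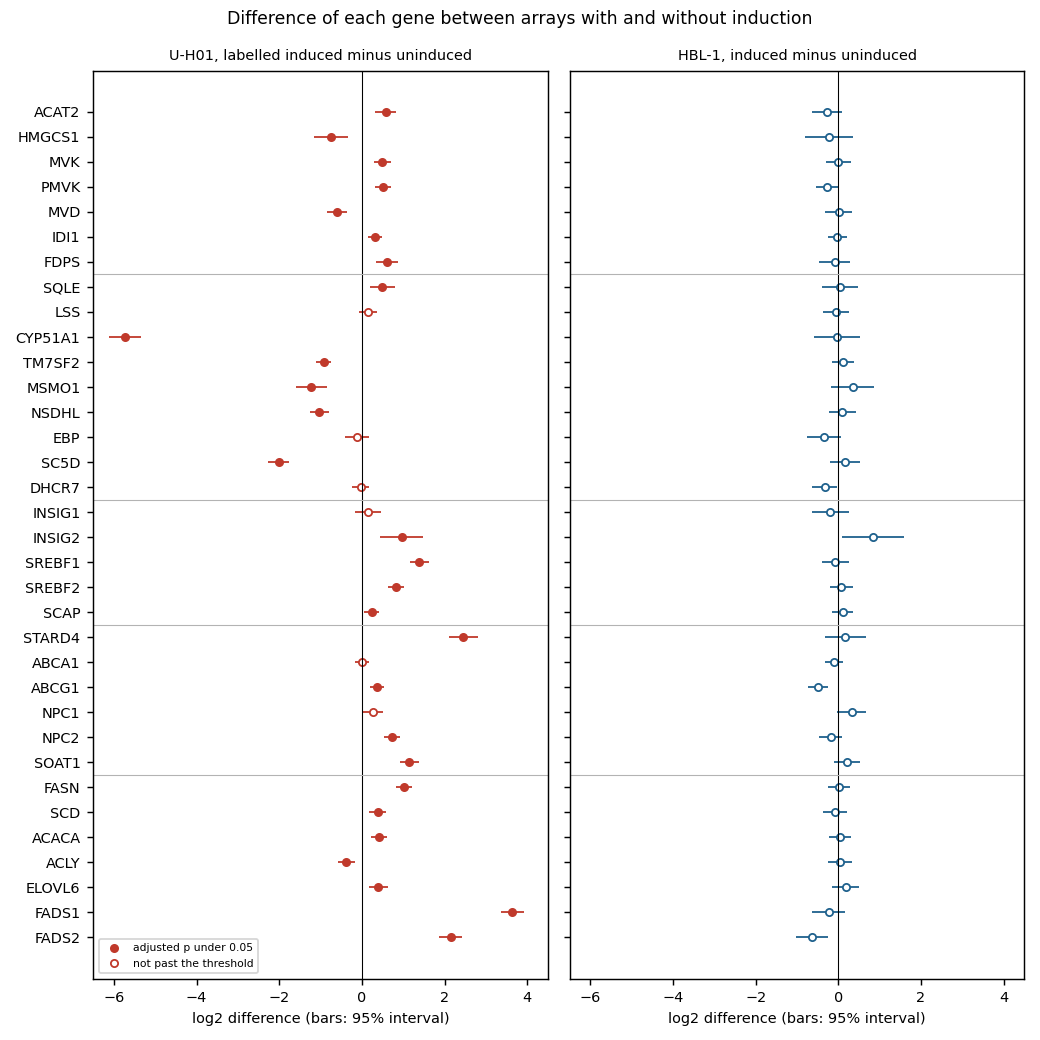
Points are log2 differences of the 34 genes with 95% intervals of the fit, for U-H01 on the left and HBL-1 on the right, filled where adjusted p was under 0.05. In U-H01 20 genes were higher and 8 lower, from -5.73 for CYP51A1 to 3.64 for FADS1, and in HBL-1 0 passed.

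In HBL-1, 0 of the 34 members passed between induced and uninduced arrays, where 0.603% of all genes did. An unadjusted p under 0.05 was found for 4 members and for 1794 of all 18417 genes. The median difference was -0.02 over the members and -0.01 over all genes. ABCG1 had the smallest p, at 6.24 and 6.18 in induced arrays and 6.84 and 6.56 in uninduced ones. Its groups did not overlap, with a difference of -0.49 ± 0.11 and adjusted p = 0.0907. FADS2 was at 8.20 and 8.50 in induced arrays and at 9.03 and 8.97 in uninduced ones, also apart (-0.65 ± 0.18, adjusted p = 0.176). INSIG2 was at 8.46 and 8.94 in induced arrays and at 7.75 and 7.98 in uninduced ones, with a difference of 0.83 ± 0.34 (adjusted p = 0.44), and DHCR7 was at 9.79 and 9.68 in induced arrays and at 10.07 and 10.07 in uninduced ones, with a difference of -0.33 ± 0.14 (adjusted p = 0.444). Both pairs of groups were apart as well. These tests take their spread largely from the 8 U-H01 arrays: INSIG2 passed without U-H01 labelled induced replicate 3 (adjusted p = 0.0116), FADS2 passed without replicate 4 of that group (adjusted p = 0.0397), and both passed without all 4 of those arrays (adjusted p = 0.00761 and 0.0255). Fitted on its own 4 arrays, with 1 residual degree of freedom, HBL-1 had 3 members past the threshold, and 868 of all 18417 genes. The 3 were ABCG1 with adjusted p = 0.00868, FADS2 with 0.000255 and INSIG2 with 1.42e-06. For CYP51A1, SC5D, FADS1 and STARD4, which with FADS2 moved most in U-H01, the HBL-1 differences were small. Their 95% intervals ran from -0.58 to 0.53 for CYP51A1 and from -0.20 to 0.51 for SC5D. For FADS1 the interval was -0.63 to 0.15, and for STARD4 it was -0.32 to 0.66. That of FADS2 ran from -1.04 to -0.25, opposite in sign to its U-H01 difference.

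The difference between the lines in these differences was tested directly. It passed for 20 of 34 members, more positive in U-H01 for 14 and more negative for 6, against 32.4% of all genes (15.4% and 17%) and 47.2% of genes brighter than the median gene. CYP51A1 at -5.70 ± 0.31 (adjusted p = 3.48e-08), SC5D at -2.18 ± 0.20 and MSMO1 at -1.56 ± 0.29 led those more negative in U-H01. FADS1 at 3.88 ± 0.22 (adjusted p = 4.93e-08), FADS2 at 2.79 ± 0.22, STARD4 at 2.28 ± 0.27 and SREBF1 at 1.46 ± 0.18 led those more positive. HMGCS1 (-0.52 ± 0.33, adjusted p = 0.27) and SQLE (0.45 ± 0.24, adjusted p = 0.195) were among 8 members that passed in U-H01 but not in this test, with IDI1, SCAP, ACACA, ACLY, ELOVL6 and INSIG2. For INSIG2 the difference was 0.96 in U-H01 and 0.83 in HBL-1, and the test between them gave 0.13 ± 0.42 (adjusted p = 0.86).

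Uninduced arrays of the lines differed most in the fatty acid genes. Between uninduced U-H01 and uninduced HBL-1 arrays, 16 of 34 members passed, 5 higher and 11 lower in U-H01, against 42.8% of all genes (20.7% higher and 22.1% lower) and 61.3% of genes brighter than the median gene. Of the 7 fatty acid genes 6 were lower in U-H01, among them FADS2 (-4.19 ± 0.16, adjusted p = 4.36e-10), FADS1 (-2.81 ± 0.16, adjusted p = 1.54e-08), FASN (-0.75 ± 0.11) and SCD (-0.75 ± 0.12). For FADS2 the groups were 4.55 to 5.11 in uninduced U-H01 and 8.97 to 9.03 in uninduced HBL-1, and the U-H01 levels of FADS2 and FADS1 lay near the dim end of the arrays, where log2 values understate a fold. The efflux transporter gene ABCG1 was lower (-1.84 ± 0.10, adjusted p = 9.88e-09), at 4.80, 4.71, 5.12 and 4.80 in uninduced U-H01 arrays and 6.84 and 6.56 in uninduced HBL-1 arrays. Along the sterol route, LSS was lower (-1.03 ± 0.12), at 9.10, 9.28, 9.01 and 8.89 in uninduced U-H01 arrays and 10.08 and 10.12 in uninduced HBL-1 arrays. TM7SF2 was higher by 1.10 ± 0.10 and MVD by 0.96 ± 0.13, and in both genes the 4 uninduced U-H01 arrays stood above all 8 other arrays of the study. CYP51A1, SC5D and MSMO1 did not differ past the threshold between these groups, with differences of 0.23, -0.21 and -0.22. With 2 uninduced HBL-1 arrays the count leaned on each, and it was lower without either, among members and among all genes alike. ELOVL6 lost its call in both cases, at -0.43 without replicate 1 and -0.50 without replicate 2, against -0.47 with all arrays. ACACA lost its call without replicate 2, at -0.32 against -0.45.

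The arrays labelled induced were also set against the induced HBL-1 arrays, which share no array with the previous comparison. Here 18 of 34 members passed, 11 higher and 7 lower in U-H01, against 38.5% of all genes (17.9% higher and 20.6% lower) and 57.2% of genes brighter than the median gene. CYP51A1 (-5.47 ± 0.22, adjusted p = 9.86e-10), SC5D (-2.38 ± 0.14) and MSMO1 (-1.78 ± 0.21) were lower in U-H01, and so were LSS (-0.83 ± 0.12), NSDHL (-0.69 ± 0.13), ABCG1 (-0.99 ± 0.10) and FADS2 (-1.39 ± 0.16). STARD4 (1.70 ± 0.19), SREBF1 (1.51 ± 0.13), SOAT1 (1.32 ± 0.13), FADS1 (1.07 ± 0.16), NPC2 (0.92 ± 0.11) and PMVK (0.87 ± 0.11) were higher. For the 5 fatty acid genes other than FADS1 and FADS2 the differences of -0.28 to 0.25 did not pass, while in the uninduced arrays FASN, SCD, ACACA and ELOVL6 had been lower in U-H01. LSS, ABCG1 and FADS2 were thus lower in U-H01 in both comparisons, and FADS1 was lower in the uninduced U-H01 arrays and higher in those labelled induced. The count was lower without either induced HBL-1 array, among members and among all genes alike. Without replicate 1 the NSDHL difference was -0.50, against -0.69 with all arrays, and its call was lost. IDI1, higher by 0.27, lost its call with the replicate block and in 7 other alternatives, in which adjusted p ran from 0.0527 to 0.286.

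The populations B1 and B2 share no arrays, and each was compared within U-H01. Both comparisons come from the same fit, with a shared time term and estimate of spread, so their calls are not independent. B2 had 14 members higher and 9 lower in arrays labelled induced, against 37.5% of all genes called (18.1% higher and 19.4% lower), and B1 had 18 higher and 6 lower, against 39.5% (18.7% higher and 20.8% lower). Among genes brighter than the median gene, 55.0% were called in B2 and 57.6% in B1. The sign was the same in both for 31 of 34 members, or 91.2%, against 77.7% of all genes. Called the same way in both were 12 members higher and 6 lower, 52.9% of the members against 31.2% of all genes. FADS1 was higher by 3.39 in B2 and 3.90 in B1, and CYP51A1 differed by -5.67 in B2 and -5.80 in B1. MSMO1 differed by -1.56 in B2 and -0.88 in B1, and STARD4 by 2.07 in B2 and 2.84 in B1.

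Tested directly, the difference between B2 and B1 passed for 0 of 34 members, against 0.586% of all genes. At an unadjusted p under 0.05 were 10 members and 2103 of all 18417 genes. HMGCS1 had the smallest p, at -0.93 ± 0.27 (adjusted p = 0.177), followed by STARD4, EBP and ACAT2 at -0.77, -0.62 and -0.53. Leaving out U-H01 labelled induced replicate 4 makes replicate 3 the lone array of B2 in its group. The differences were then -1.49 for INSIG2, -1.34 for HMGCS1 and -1.10 for STARD4. Between B2 and B1 themselves, 0 members passed among uninduced arrays, against 3.3% of all genes, and 0 among arrays labelled induced, against 0.109%. At an unadjusted p under 0.05 were 7 members and 3245 of all 18417 genes in the former, and 6 members and 1537 genes in the latter. Between time points 2 and 1 no gene passed in either line, 0% of all genes and 0 members, with 1422 genes in U-H01 and 779 in HBL-1, 0 and 1 of them members, at an unadjusted p under 0.05. That gene was SC5D in HBL-1, at 8.63 against 8.13 in induced arrays and 8.36 against 8.08 in uninduced ones.

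Among the arrays labelled induced, the lipid genes varied together from array to array. Replicate 3, of B2 at time point 1, was the lowest of its group in 25 of 34 members, or 73.5%, against 25.2% of all genes, and in 12 of the 16 mevalonate and sterol genes. The mean deviation of those 16 genes from their group means was -0.25 on that array, against 0.21, 0.05 and -0.01 on replicates 1, 2 and 4, and between -0.04 and 0.06 on the other 8 arrays. INSIG2 was lower there than its group mean by the most, at -1.17, then MSMO1 at -0.75, HMGCS1 at -0.70 and INSIG1 at -0.57. CYP51A1 at 0.32, ABCG1 and SOAT1 at 0.11, PMVK at 0.08, ABCA1 at 0.02 and SCAP at 0.01 lay above their means on that array. The SD of a member had a median of 0.24 within the arrays labelled induced and 0.13 within the uninduced ones, where all genes had 0.14 and 0.13, and 27 of 34 members had the larger SD in the arrays labelled induced. Among uninduced U-H01 arrays, replicate 4 was the lowest in 18 of 34 members, or 52.9%, against 30.2% of all genes.

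**Figure D4:**
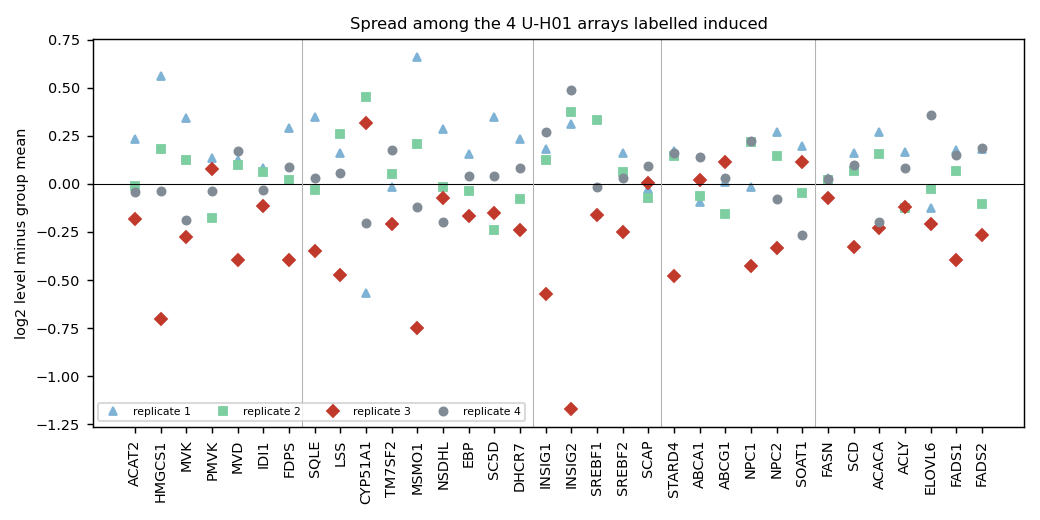
Points are the log2 level of each gene on the 4 U-H01 arrays labelled induced minus the mean of those arrays, with the roles divided by grey lines. Replicate 3 (red diamonds) was lowest in 25 of 34 genes, down to -1.17 for INSIG2, and lay above the mean in 6, up to 0.32 for CYP51A1.

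To find the coordinated and the outlying members, each gene's deviations from its 4 group means over the 12 arrays were correlated with the mean deviation of the other mevalonate and sterol members, as a description with no p. The points share arrays and normalization. At 0.7 or above were 14 of 34 members, or 41.2%, against 3.51% of all genes. HMGCS1 led at 0.96, with MSMO1 at 0.92, FDPS and MVK at 0.87, IDI1 at 0.86, INSIG1 at 0.83, INSIG2 at 0.82, SQLE at 0.77, DHCR7 and LSS at 0.75, SCD at 0.73, MVD at 0.72, STARD4 at 0.71 and NPC2 at 0.70. Coordination within groups was separate from the direction between them, since HMGCS1, MSMO1 and MVD were lower and FDPS, MVK and IDI1 higher in arrays labelled induced. Farthest from the others were CYP51A1 at -0.66, ABCA1 at -0.30, ABCG1 at -0.22, SCAP at -0.17, SOAT1 at 0.05 and PMVK at 0.09. The relation rests largely on a pair of arrays. Without replicate 3 of the arrays labelled induced, 4 of 34 members stayed at 0.7 or above, HMGCS1, MVK, MSMO1 and IDI1, or 11.8% against 5.35% of all genes, and without replicates 1 and 3 only IDI1 did, or 2.94% against 2.73%. The outlying members shifted as well: without replicate 3 PMVK was at 0.68 and SOAT1 at 0.51, and without replicates 1 and 3 CYP51A1 was at 0.29.

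Genes next to the members with the largest differences, taken in the order of the GRCh38.p14 gene table and chosen after the values were seen, did not all move with them. Of the 8 measured genes around each, 4 passed the test in U-H01 around CYP51A1, 7 around SC5D and 3 around FADS1. Of all genes, 45.8% passed that test, and the 3 around FADS1 include FADS2, itself a member. Beside CYP51A1 on chromosome 7, AKAP9 averaged 6.94 in U-H01 arrays labelled induced and 6.85 in uninduced ones, and LRRD1 averaged 3.79 in arrays labelled induced and 3.86 in uninduced ones, neither past the threshold, although LRRD1 lay below the arrays' lower quartiles in every group. MTERF1, on the far side of AKAP9, was higher by 1.90 (adjusted p = 3.47e-07), CDK14 was higher by 0.60, and ANKIB1 (-0.37) and GATAD1 (-0.34) were lower. Beside SC5D on chromosome 11, TECTA did not pass, but SORL1 averaged 4.76 in arrays labelled induced and 11.1 in uninduced ones (adjusted p = 3.03e-13). TBCEL averaged 3.96 in arrays labelled induced and 8.16 in uninduced ones (adjusted p = 5.13e-11), the lower level being under the arrays' lower quartiles. Around the FADS genes, also on chromosome 11, FEN1 averaged 8.86 in arrays labelled induced and 8.92 in uninduced ones and did not pass. FADS3, which lies on the other side of FADS2, averaged 6.54 in arrays labelled induced and 9.28 in uninduced ones, a log2 difference of -2.74 (adjusted p = 3.44e-10), while FADS1 and FADS2 were higher.

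**Figure D5:**
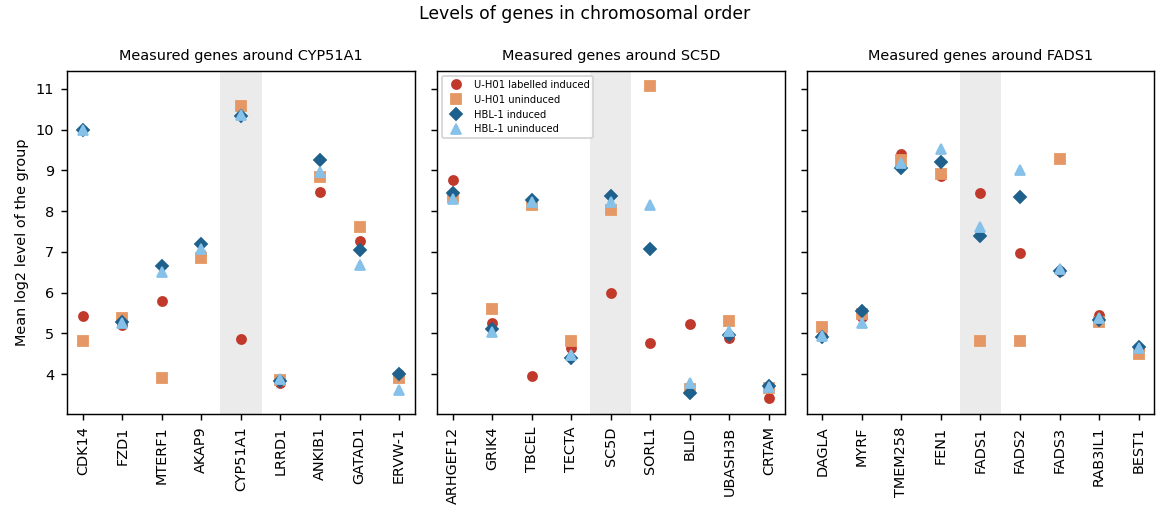
Points are mean log2 levels of the 4 groups for the measured genes in chromosomal order around CYP51A1, SC5D and FADS1 (grey bands), 4 genes to each side. CYP51A1 was low in U-H01 arrays labelled induced between AKAP9 and LRRD1, which did not pass the test between the 2 U-H01 groups, SC5D was low there together with TBCEL and SORL1, and FADS1 and FADS2 were higher there than in uninduced U-H01 arrays while FADS3 was lower.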

How the data were processed

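The deposited table holds log2 levels of 33297 probe sets on 12 arrays, made by the authors with RMA in Partek per the submitters' processing notes (versions not given in the sources used). Probe sets with 1 symbol (19460) were kept, those with several (1754) or none listed (12083) were left out, and the brightest over the 12 arrays stood for a gene. limma 3.58.1 in R 4.3.3 fitted group, population and time terms over all 12 arrays (7 terms, 5 residual degrees of freedom), with Benjamini-Hochberg adjustment over the 19460 probe sets and a threshold of 0.05, and a second fit tested B2 against B1. The precision is limited by the number of arrays. The script was tested on simulated data. Depth does not apply to arrays.

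The members and gene lists were chosen with earlier results of these data known. All members are described, and other pathway genes are named where the U-H01 difference exceeded 1 on the log2 scale, up to 8. Pairs of an induced and an uninduced array come from the labels: the protocol splits each transduced population into both, and titles number them by time point. Deviations of such pairs from group means correlated at 0.14 and -0.03 in B1, 0.10 and 0.03 in B2 and 0.10 in C. Alternatives were the replicate block, quantile normalization, trend and robust moderation, all probe sets tested, only those above the median level, the mean of a gene's probe sets, 4 group means only, each line alone and leaving out single arrays. Promoter windows came from RefSeq on GRCh38.p14.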

Additional observations from a re-analysis of the deposited data

Results flagged for a closer look

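One U-H01 array labelled induced, replicate 3, was below the other 3 of its group in 5 genes by a gap that took up most of the group's range, of 68 gene-by-group sets examined, where chance marks about 1 in 20. A count of 5 is near what that rate gives, and the sets are not independent, since the lipid genes varied together. Replicate 3 read 7.64 for MVD, 9.36 for INSIG1, 8.04 for INSIG2, 10.8 for STARD4 and 9.97 for FASN, where the whole group lay between 9.97 and 10.07.

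By a direct test, 20 genes had unequal differences between induced and uninduced arrays in U-H01 and HBL-1. As the U-H01 difference minus that of HBL-1, with U-H01 arrays taken by their label, the log2 values were negative for CYP51A1 (-5.70), SC5D (-2.18), MSMO1 (-1.56), NSDHL (-1.12), TM7SF2 (-1.04) and MVD (-0.60). They were positive for FADS1 (3.88), FADS2 (2.79), STARD4 (2.28), SREBF1 (1.46), FASN (1.0), SOAT1 (0.93), NPC2 (0.91), ACAT2 (0.86), ABCG1 (0.85), PMVK (0.78), SREBF2 (0.76), FDPS (0.70), MVK (0.50) and SCD (0.47).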

How the results depend on the processing

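In the 4 comparisons between groups, no member that passed reversed its direction under any alternative run. Neither did ABCG1, FADS2, INSIG2 or DHCR7 in HBL-1. The correlations of deviations did change sign for some members when arrays were left out, CYP51A1 among them, as given above. Leaving out single arrays gave 27 to 30 members called in U-H01, 0 to 1 in HBL-1, 16 to 25 for the difference between the lines, 9 to 19 between uninduced lines, 14 to 22 between U-H01 arrays labelled induced and induced HBL-1 arrays, 0 to 3 for B2 against B1 and 0 to 0 for time points in each line. HBL-1 fitted alone had 3 members and 868 of 18417 genes called. Without the 4 U-H01 arrays labelled induced, an alternative chosen after seeing the data, it had 2 members and 316 genes called. The cause was not tested. With the replicate block, 28 members and 8181 of all 18417 genes passed in U-H01, and 0 members and 87 genes in HBL-1. Between uninduced lines 16 members and 7682 genes passed. Between U-H01 arrays labelled induced and induced HBL-1 arrays it was 17 members and 6869 genes. For the difference between the lines it was 19 members and 5728 genes. Pairing removed the call of IDI1 in the comparison with induced HBL-1 arrays, as given above, and changed no other call of a gene named in the 4 comparisons between groups. Over all genes, HBL-1 had 111 calls, against 38 (all probe sets tested) to 868 (HBL-1 alone) over the alternatives that kept both arrays of each HBL-1 group. The array number limits all comparisons, most of all those with 2 HBL-1 arrays a group.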

Other observations

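Other lipid genes, taken from a list of 48 of which 41 were measured, moved in both directions in U-H01, with 13 higher and 19 lower in arrays labelled induced against 22.3% and 23.5% of all genes, and a median log2 difference of -0.11. HSD17B12, a reductase of fatty acid elongation, averaged 3.41 in arrays labelled induced and 7.84 in uninduced ones, the lower level being under the arrays' lower quartiles of 4.18 to 4.28. MYLIP, a ubiquitin ligase, averaged 7.62 in arrays labelled induced and 11.0 in uninduced ones. FADS3 (-2.74), the phosphatidate phosphatase LPIN2 (-2.02), the oxysterol-binding protein OSBPL1A (-1.87), the elongase ELOVL7 (-1.22) and the carnitine transferase CPT1A (-1.16) were lower too. The acyl-CoA synthetase ACSL5 was higher, at 8.76 in arrays labelled induced and 6.96 in uninduced ones. Of the 41, 1 passed in HBL-1, ELOVL7, higher by 0.99 in induced arrays (limma, adjusted p = 0.0103). Between uninduced U-H01 and uninduced HBL-1 arrays 13 were higher and 15 lower, against 20.7% and 22.1% of all genes, and between U-H01 arrays labelled induced and induced HBL-1 arrays 9 were higher and 13 lower, against 17.9% and 20.6%. In U-H01, induction and cell identity cannot be told apart here either.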
